A study of Mus musculus with 36 samples.

Results

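Glycolysis is represented here by 10 enzyme genes, *Hk1*, *Hk2*, *Gpi1*, *Pfkl*, *Aldoa*, *Gapdh*, *Pgk1*, *Eno1*, *Pkm* and *Ldha*. They were chosen by symbol, as the identifiers in the count table that map to these names. They are 10 of the 38887 genes in the table. Glycolysis converts glucose to pyruvate in the cytosol and yields ATP and building blocks without oxygen. Hexokinases trap glucose in the cell, phosphofructokinase commits it to the pathway, the lower steps from aldolase to pyruvate kinase recover ATP, and lactate dehydrogenase turns pyruvate into lactate and regenerates NAD+. Long-term hematopoietic stem cells are known for residing in poorly oxygenated bone marrow and for using glycolysis with little mitochondrial respiration, while cycling progenitors raise their demand for energy and for precursors.

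RNA was sequenced from long-term hematopoietic stem cells (LT-HSC, CD150 positive and CD48 negative) and from HPC-1 (CD150 negative and CD48 positive), progenitors that are further along in differentiation and that the labels call ST-HSC. Both gates lack lineage markers and carry Sca-1 and c-Kit, and 5000 cells from bone marrow were sorted per sample. All mice lacked *Apoe* and were fed a Western diet, and PBS or angiotensin II (Ang II), the peptide that drives aneurysm formation in this background, was infused for 2 weeks. The genotypes were *Apoe*-/- with intact *Il27ra* (WT below), *Apoe*-/-*Il27ra*+/- (het) and *Apoe*-/-*Il27ra*-/- (KO), and *Il27ra* encodes the receptor of interleukin-27. The study asked how this receptor shapes the response of stem and progenitor cells to Ang II.

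The LT-HSC libraries numbered 1 in PBS WT, 3 in PBS het, 3 in PBS KO, 2 in Ang II WT, 4 in Ang II het and 4 in Ang II KO, which makes 17. The HPC-1 libraries numbered 2 in PBS WT, 3 in PBS het, 3 in PBS KO, 3 in Ang II WT, 4 in Ang II het and 4 in Ang II KO, which makes 19. Total counts per library ran from 1980283 to 6861078 with a median of 3139364, and the lowest count of any member in any library was 100, for *Hk2*. Levels are given as CPM, counts scaled to library size with TMM factors, and a gene is called when its adjusted p from the edgeR quasi-likelihood test is under 0.05. The labels give no age, sex or batch and do not say whether libraries came from separate animals, so the p-values measure only the spread between these samples. The paper states at what age the diet began and that gender was a factor in its tests. For the sorted cells it gives n = 2 mice for WT, 4 for het and 3 for KO, fewer than the libraries of some groups here. Because each library is a bulk sample, fewer cells of a type and less RNA per cell cannot be told apart.

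Marker genes separated the sorted gates. All 9 LT-HSC markers tested were higher in LT-HSC, among them *Slamf1*, the gene of CD150, at 3.97 log2, and 7 of 8 HPC-1 markers were lower, among them *Cd48*, at a median of 0.4851 CPM in LT-HSC and 61.88 CPM in HPC-1. No fold is given for genes with a median under 1 CPM in a cell type. The markers summed to a median of 1754 CPM (LT-HSC list) and 184.8 CPM (HPC-1 list) in LT-HSC libraries, and to 212.8 and 6374 CPM in HPC-1 libraries. *Vwf*, at a mean of 461 CPM, was the most abundant of the LT-HSC list in LT-HSC, *Mpo*, at 4555 CPM, that of the HPC-1 list in HPC-1, and no marker of either list was at 0 in all libraries of a cell type. *Kit* and *Ly6a*, which define both gates, were detected throughout and were higher in LT-HSC by 0.30 and 1.33 log2.

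A pair of LT-HSC libraries stood apart from their labelled cell type, 1 by markers of the other gate and 1 by a mixture of markers. In replicate 2 of PBS KO LT-HSC the HPC-1 markers summed to 5158 CPM, within the HPC-1 range of 3951 to 7614 CPM, and the LT-HSC markers to 265.2 CPM. In replicate 2 of Ang II KO LT-HSC these sums were 1591 and 900.3 CPM, both between the ranges of HPC-1 and most LT-HSC libraries, and the neutrophil list summed to 6895 CPM against an LT-HSC median of 8.449 CPM, and the erythroid list to 2832 CPM. Replicate 3 of PBS KO LT-HSC had sums of 3049 CPM (erythroid), 1177 CPM (neutrophil) and 432.6 CPM (HPC-1 markers), and it stays in all results without the pair. The erythroid list also summed to 821 CPM in replicate 3 of PBS het LT-HSC. The intestinal epithelium list summed to 311.1 CPM in PBS WT LT-HSC, 466.9 and 534.8 CPM in Ang II WT LT-HSC and 312.1 CPM in replicate 3 of Ang II WT HPC-1 (medians 68.7 erythroid and 99.57 intestinal in LT-HSC, 44.6 intestinal in HPC-1). Values without the 2 libraries with HPC-1 markers are given where the text says so, and all others are with all libraries. The only PBS WT LT-HSC library held *Il27ra* at 17.1 CPM, which lies in the range of Ang II KO LT-HSC (11.64 to 19.25 CPM), above that of PBS KO LT-HSC (6.928 to 16.32 CPM) and below all het and Ang II WT LT-HSC libraries (24.06 CPM or more). Its genotype label is therefore uncertain, and it enters no tested contrast except where the text says so. In HPC-1, *Il27ra* was at 6.059 to 11.9 CPM in WT and 4.63 to 11.07 CPM in KO libraries, so it cannot check the genotype labels of HPC-1.

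Per kilobase of transcript, the scale on which different genes can be compared, the members spanned more than an order of magnitude in both cell types. In LT-HSC the mean level per kilobase was highest for *Gapdh* (244 ± 56.5 CPM per kb, SD, n = 17), followed by *Pkm* (184 ± 38.5), *Ldha* (163 ± 25.9), *Aldoa* (149 ± 24.6), *Eno1* (132 ± 28.9), *Gpi1* (108 ± 20.4), *Hk1* (82.5 ± 11.6), *Pgk1* (56.6 ± 13.6), *Pfkl* (27.3 ± 5.12) and *Hk2* (17.4 ± 2.98). In HPC-1 the mean level per kilobase was again highest for *Gapdh* (380 ± 57.3 CPM per kb, SD, n = 19), followed by *Pkm* (236 ± 39.9), *Eno1* (190 ± 42.7), *Ldha* (185 ± 38.2), *Aldoa* (184 ± 31), *Gpi1* (160 ± 21.1), *Pgk1* (93.5 ± 16.9), *Hk1* (70.8 ± 8.32), *Pfkl* (29.9 ± 4.63) and *Hk2* (19.8 ± 3.97). *Hk2* and *Pfkl* thus had the lowest transcript levels per kilobase among the 10 genes. *Gapdh* stood above *Pkm* on this scale in all 17 LT-HSC and all 19 HPC-1 libraries. Neighbours whose levels per kilobase did not separate were *Ldha* and *Aldoa* in LT-HSC (*Ldha* higher in 10 of 17 libraries) and *Eno1*, *Ldha* and *Aldoa* in HPC-1 (*Eno1* above *Ldha* in 10 of 19, *Ldha* above *Aldoa* in 8 of 19). *Eno1*, with a mean per kilobase below those of *Ldha* and *Aldoa* in LT-HSC, had one above both in HPC-1. *Hk1* and *Pgk1* also changed places: *Hk1* lay above *Pgk1* per kilobase in 15 of 17 LT-HSC libraries, the exceptions being both KO replicates 2 with HPC-1 markers, and *Pgk1* above *Hk1* in 18 of 19 HPC-1 libraries.

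The first comparison asks whether glycolytic transcripts differ between stem cells and progenitors, as the mean difference over the 5 combinations of agent and genotype that have at least 2 libraries in each cell type (all but PBS WT). Most of the pathway was lower in LT-HSC. Of the 10 members, all tested, 6 were lower in LT-HSC (*Gpi1*, *Aldoa*, *Gapdh*, *Pgk1*, *Eno1* and *Pkm*), 1 was higher (*Hk1*) and 3 were not called (*Hk2*, *Pfkl* and *Ldha*). Among all 18013 genes tested, 36.3% were called, 18.5% lower in LT-HSC and 17.9% higher. A call is common in this contrast, and 7 of 10 is read against that share. The median log2 fold change was −0.29 over the members and 0.03 over all genes tested. Summed over the 10 members, the lowest, median and highest libraries were 1916, 2320.0 and 3258 CPM in LT-HSC and 2399, 3005 and 3632 CPM in HPC-1. Of the 17 LT-HSC libraries, 11 lay below every HPC-1 library.

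**Figure D1:**
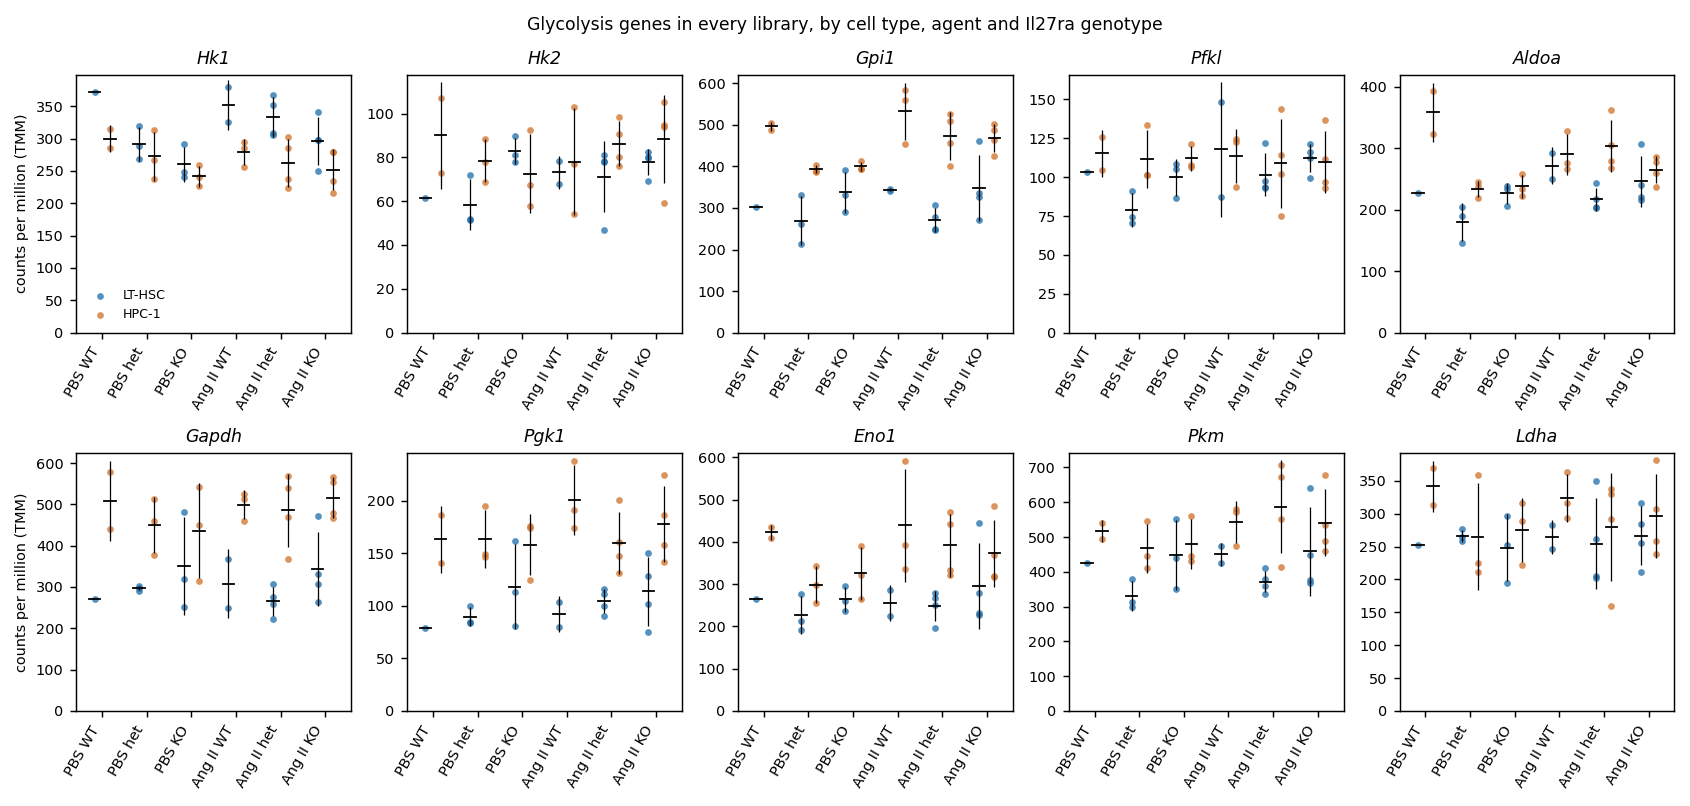
Level of each glycolysis gene in every library, in CPM after TMM scaling (vertical axis, from 0), by agent and *Il27ra* genotype (horizontal axis), with LT-HSC in blue and HPC-1 in orange; points are libraries, horizontal bars are means and vertical bars are SD (none for the single PBS WT LT-HSC library). *Gpi1* in LT-HSC lay below every HPC-1 library in 15 of 17 libraries, and *Hk1* had its mean higher in LT-HSC in 6 of 6 combinations of agent and genotype.

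The hexokinases open the pathway by phosphorylating glucose. *Hk1*, the ubiquitous form that binds mitochondria, was at a lowest, median and highest of 240.0, 305 and 379 CPM in LT-HSC and 216, 267 and 315 CPM in HPC-1. The cell types overlapped, with 7 of 17 LT-HSC libraries above every HPC-1 library. The LT-HSC mean was the higher one in 6 of 6 combinations of agent and genotype. Its log2 fold change, LT-HSC minus HPC-1, was 0.22 (SE 0.068, adjusted p = 0.00772), or 1.17-fold higher in LT-HSC, and 0.24 without both KO replicates 2. It was not called with no filter on low counts (0.22). *Hk2*, the inducible form of insulin-sensitive tissues, ran from 47.1 to 89.6 CPM in LT-HSC and from 54.1 to 107 CPM in HPC-1 and was not called, at −0.16 (SE 0.101, adjusted p = 0.256).

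*Gpi1* encodes glucose-6-phosphate isomerase, which makes fructose-6-phosphate. In PBS-infused mice its LT-HSC libraries held 302.5 CPM in WT, 331, 214 and 263 CPM in het and 291, 391 and 331 CPM in KO. Its HPC-1 libraries after PBS held 489 and 504 CPM in WT, 387, 389.7 and 405 CPM in het and 394, 413 and 393 CPM in KO. After Ang II the LT-HSC libraries held 341 and 346 CPM in WT, 279, 250.0, 246 and 307 CPM in het and 335, 461, 272 and 326 CPM in KO. The HPC-1 libraries after Ang II held 454, 559 and 585 CPM in WT, 510.0, 527, 400.4 and 457 CPM in het and 463, 502, 487.5 and 425.5 CPM in KO. The cell types did not overlap in 5 of 6 combinations, and Ang II KO was the one that did. Over all combinations, the LT-HSC libraries not below every HPC-1 library were both replicates 2 of the KO groups, the pair with HPC-1 markers. The log2 fold change was −0.53 (SE 0.0736, adjusted p = 2.09e-07), which is 1.45-fold lower in LT-HSC. Without both of those libraries it was −0.58.

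*Pfkl*, the liver-type phosphofructokinase that catalyses the committed step, ran from 70.3 to 149 CPM in LT-HSC and from 75 to 144 CPM in HPC-1, almost the same span, and was not called at −0.14 (SE 0.0907, adjusted p = 0.266). *Aldoa*, the aldolase that splits fructose-1,6-bisphosphate, was at a lowest, median and highest of 146, 221 and 306 CPM in LT-HSC and 219, 268 and 392 CPM in HPC-1. These ranges overlapped, with 8 of 17 LT-HSC libraries below every HPC-1 library. The log2 fold change of *Aldoa* was −0.23 (SE 0.0701, adjusted p = 0.00885), the smallest decrease among the called members, and −0.25 without both KO replicates 2. It was not called with no filter on low counts (−0.23), in the less deep libraries alone (−0.23) or with library totals as the only scaling (−0.13).

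*Gapdh*, which oxidises glyceraldehyde-3-phosphate and reduces NAD+, was lower in LT-HSC. In PBS-infused mice its LT-HSC libraries held 269.8 CPM in WT, 291.5, 303 and 297 CPM in het and 252, 483 and 320.1 CPM in KO. Its HPC-1 libraries after PBS held 441 and 577 CPM in WT, 378, 459 and 514 CPM in het and 314, 450.3 and 543 CPM in KO. After Ang II the LT-HSC libraries held 250.0 and 367 CPM in WT, 258, 222, 275 and 307 CPM in het and 265, 472, 306 and 332 CPM in KO. The HPC-1 libraries after Ang II held 459, 526.1 and 513 CPM in WT, 469, 567.8, 367 and 539 CPM in het and 468, 554, 566 and 478 CPM in KO. The cell types did not overlap in 4 of 6 combinations, and in the KO groups replicate 2 was the highest LT-HSC library. The log2 fold change was −0.61 (SE 0.0937, adjusted p = 1.4e-06), which is 1.53-fold lower in LT-HSC, and without both replicates 2 it was −0.71. A gene often used as a loading reference thus differed between these gates.

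*Pgk1*, the X-linked phosphoglycerate kinase that makes the first ATP of the pathway, had the lowest log2 fold change among the 10 members. In PBS-infused mice its LT-HSC libraries held 78.8 CPM in WT, 84.9, 83.9 and 99.7 CPM in het and 80.4, 161 and 113 CPM in KO. Its HPC-1 libraries after PBS held 140.3 and 186 CPM in WT, 146, 149 and 195 CPM in het and 124, 174 and 176 CPM in KO. After Ang II the LT-HSC libraries held 79.8 and 104 CPM in WT, 99.8, 90.1, 115 and 111 CPM in het and 75, 150, 128 and 101.5 CPM in KO. The HPC-1 libraries after Ang II held 173, 191 and 237 CPM in WT, 147, 200.5, 131 and 161 CPM in het and 158, 186, 224 and 141.5 CPM in KO. Every LT-HSC library lay below the HPC-1 median, and 14 of 17 lay below every HPC-1 library. The log2 fold change was −0.73 (SE 0.101, adjusted p = 2.19e-07), which is 1.66-fold lower in LT-HSC, and −0.82 without both KO replicates 2.

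*Eno1*, the enolase that forms phosphoenolpyruvate, was at a lowest, median and highest of 190.3, 259.8 and 443.5 CPM in LT-HSC and 255, 343 and 590.3 CPM in HPC-1. The LT-HSC maximum was replicate 2 of Ang II KO, and 8 of 17 LT-HSC libraries lay below every HPC-1 library. Its log2 fold change was −0.50 (SE 0.0985, adjusted p = 8.73e-05), and −0.56 without both KO replicates 2. *Pkm*, the pyruvate kinase gene whose transcripts carry alternative exons for the M1 and M2 forms that gene counts cannot separate, was at 298, 380.4 and 642 CPM in LT-HSC and 410.5, 535 and 708.5 CPM in HPC-1, and 10 of 17 LT-HSC libraries lay below every HPC-1 library. Its log2 fold change was −0.35 (SE 0.0868, adjusted p = 0.00114), and −0.42 without that pair. *Ldha*, which reduces pyruvate to lactate, was at 195, 258 and 349 CPM in LT-HSC and 160.1, 306 and 381 CPM in HPC-1, with the lowest value of all in 1 HPC-1 library (Ang II het replicate 3), and was not called at −0.15 (SE 0.102, adjusted p = 0.301).

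**Figure D2:**
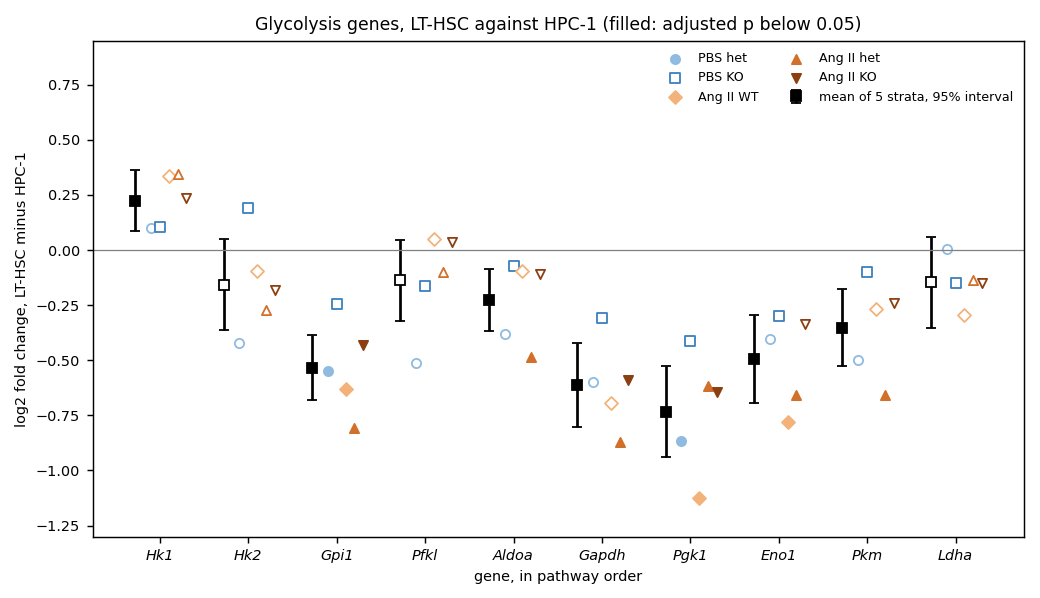
Log2 fold change, LT-HSC minus HPC-1 (vertical axis), of each glycolysis gene in pathway order (horizontal axis): black squares are the mean over 5 combinations of agent and genotype with 95% confidence intervals of the edgeR fit, and coloured symbols the 5 combinations, filled where the adjusted p was under 0.05. The mean ran from −0.73 (*Pgk1*) to 0.22 (*Hk1*), and 9 of 10 members had a negative one.

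Within single combinations of agent and genotype the same contrast rests on few libraries. In Ang II het, with 4 libraries in each cell type, 6 of 10 members were called, all lower in LT-HSC, beside 14.9% of all genes: *Gpi1* (−0.81), *Aldoa* (−0.48), *Gapdh* (−0.87), *Pgk1* (−0.62), *Eno1* (−0.66) and *Pkm* (−0.66 log2). Leaving out LT-HSC replicate 4 or HPC-1 replicate 2 left 3 of them. In Ang II WT, 3 members were called, beside 10.4% of genes: *Pgk1* at −1.13 (SE 0.268, adjusted p = 0.00537), *Eno1* at −0.78 and *Gpi1* at −0.63. That count was 0 without LT-HSC replicate 1 and 1 (*Pgk1*) without HPC-1 replicate 2 or 3. With replicate number as a block it was also 1 (*Pgk1*). HPC-1 replicate 3, the highest HPC-1 library for these 3 genes, and both LT-HSC libraries of this contrast are those with high intestinal sums. In PBS het, 2 members were called, *Gpi1* (−0.55) and *Pgk1* (−0.87), beside 7.67% of genes. The PBS het count was 0 without LT-HSC replicate 2 or HPC-1 replicate 3 and 1 without any other of the 6 libraries. It was also 0 with library totals alone or only the libraries under 4000000 counts.

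The KO combinations contain the pair of LT-HSC libraries with HPC-1 markers. In Ang II KO, 3 members were called, *Gpi1* (−0.43), *Gapdh* (−0.59) and *Pgk1* (−0.64), beside 12.5% of genes, and without both KO replicates 2 the members called were 5, with *Eno1* and *Pkm* added. The same omission, through the shared model, gave 3 in PBS het and 4 in Ang II WT, with *Gapdh* added in each. The Ang II KO count was 0 without LT-HSC replicate 1 or 4 or HPC-1 replicate 2 or 3, 1 without LT-HSC replicate 3, and 2 without HPC-1 replicate 1. It was also 0 with only the groups compared, library totals alone or only the libraries under 4000000 counts. In PBS KO, edgeR called 0 members, beside 0.883% of genes, with 0 members and 1949 genes at an unadjusted p under 0.05 and 0 members called by DESeq2. Without both replicates 2 it was still 0 members, with 3 at an unadjusted p under 0.05, while the share of all genes called was 7.88%. The PBS WT combination, with 1 LT-HSC library and uncertain genotype, was not tested. Its members summed to 2357 CPM in LT-HSC and to 3182 and 3441 CPM in HPC-1. *Hk1* was at 372 CPM in LT-HSC and at 315 and 285 CPM in HPC-1, and *Pfkl* at 103.5 against 104.5 and 126 CPM.

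Whether the cell type difference depended on agent or genotype was tested directly by 4 interaction contrasts. Ang II minus PBS in het and in KO, and KO minus het under Ang II and under PBS, each gave 0 called members, beside 0% of all genes tested, by edgeR, with 0 members at an unadjusted p under 0.05 in any of them, while 546, 424, 529 and 632 genes had one. DESeq2 also called 0 members in each. Without both KO replicates 2 each still gave 0 members called. Interactions that involve WT were not tested. The widest 95% interval of a member's interaction reached 0.67 log2 to either side.

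The next question of the design is whether Ang II changes these genes within a cell type. In LT-HSC, het mice gave 0 members of 10 called by edgeR, beside 0% of all genes tested. Member log2 fold changes ranged from −0.18 to 0.36, with an unadjusted p under 0.05 for 0 members and 806 genes. LT-HSC of KO mice gave 0 members of 10 called by edgeR, beside 0% of all genes tested. Across the members, log2 fold changes were from −0.10 to 0.18, with an unadjusted p under 0.05 for 0 members and 150 genes. In HPC-1, WT mice gave 0 members of 10 called by edgeR, beside 0% of all genes tested. The 10 log2 fold changes ran from −0.29 to 0.31, with an unadjusted p under 0.05 for 0 members and 420 genes. HPC-1 of het mice gave 0 members of 10 called by edgeR, beside 0% of all genes tested. Log2 fold changes of members ran from −0.06 to 0.38, with an unadjusted p under 0.05 for 1 member and 519 genes. HPC-1 of KO mice gave 0 members of 10 called by edgeR, beside 0% of all genes tested. Member log2 fold changes ranged from −0.04 to 0.28, with an unadjusted p under 0.05 for 0 members and 244 genes. DESeq2 also called 0 members in each of the 5. Without both KO replicates 2 the KO comparison in LT-HSC had a member median of 0.03 in place of 0.07 and 0 members called. In HPC-1 of het mice the member with the smallest unadjusted p was *Aldoa*, at 238, 219 and 245 CPM after PBS and 304, 362, 268 and 279.6 CPM after Ang II. These groups did not overlap, and its log2 fold change of 0.37 (SE 0.149, adjusted p = 1) did not pass the adjustment.

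Genotype comparisons gave the same count. In Ang II LT-HSC, KO minus WT gave 0 members of 10 called by edgeR, beside 1.69% of all genes tested. Across the members, log2 fold changes were from −0.23 to 0.32, with an unadjusted p under 0.05 for 0 members and 2896 genes. Het minus WT in Ang II LT-HSC gave 0 members of 10 called by edgeR, beside 0.831% of all genes tested. The 10 log2 fold changes ran from −0.34 to 0.19, with an unadjusted p under 0.05 for 0 members and 2566 genes. KO minus het in Ang II LT-HSC gave 0 members of 10 called by edgeR, beside 0% of all genes tested. Log2 fold changes of members ran from −0.16 to 0.38, with an unadjusted p under 0.05 for 1 member and 426 genes. KO minus het in PBS LT-HSC gave 0 members of 10 called by edgeR, beside 0% of all genes tested. Member log2 fold changes ranged from −0.17 to 0.50, with an unadjusted p under 0.05 for 2 members and 654 genes. In that comparison 8 of 10 members had a positive log2 fold change with a median of 0.33, and the members with an unadjusted p under 0.05 were *Hk2* and *Pkm*. *Hk2* was at 77.9, 81.1 and 89.6 CPM in KO and 51.4, 51.9 and 71.8 CPM in het, without overlap, at 0.50 (SE 0.202, adjusted p = 0.982). *Pkm* was at 351, 551 and 441 CPM in KO and 298, 313 and 380.1 CPM in het. The groups overlapped for *Pkm*, and the highest KO value was that of replicate 2, the library with HPC-1 markers. Without both KO replicates 2 the member median was 0.17 and 1 member had an unadjusted p under 0.05. Without them, KO minus het in Ang II LT-HSC had a member median of 0.07 in place of 0.17 and 0 members with such a p. KO minus WT there had −0.08 in place of 0.04, with 0 members called beside 4.4% of genes. Both Ang II comparisons against WT share the 2 WT libraries with high intestinal sums, in which *Dmbt1* reached 192.8 CPM against an LT-HSC median of 0. *Krt18*, the most abundant gene of that list by its mean in LT-HSC, was not among the 8 list genes called. All 8, *Dmbt1*, *Agr2*, *Cdh17*, *Muc2*, *Krt8*, *Krt20*, *Epcam* and *Lgals4*, were lower than in WT in each comparison, no gene of the list was at 0 in all LT-HSC libraries, and the part of these cells in the members' values was not tested.

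**Figure D3:**
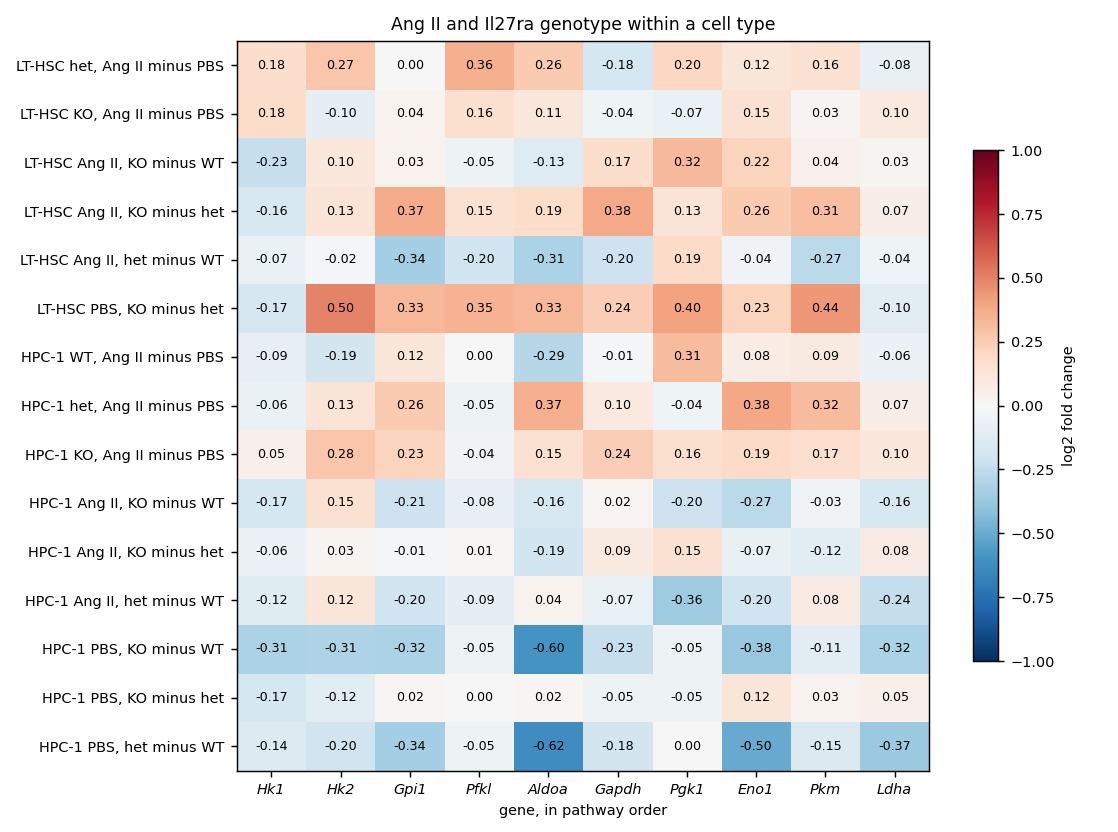
Log2 fold change of each glycolysis gene (columns, pathway order) in the 15 comparisons of agent or *Il27ra* genotype within a cell type (vertical axis), with red for higher and blue for lower in the first-named group. Values ran from −0.62 (*Aldoa*, HPC-1 PBS het minus WT) to 0.50 (*Hk2*, LT-HSC PBS KO minus het), and 0 were called by edgeR or DESeq2 (unadjusted p under 0.05 for at most 2 members in a comparison).

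In HPC-1, KO minus WT under Ang II gave 0 members of 10 called by edgeR, beside 0% of all genes tested. Across the members, log2 fold changes were from −0.27 to 0.15, with an unadjusted p under 0.05 for 0 members and 661 genes. KO minus het under Ang II gave 0 members of 10 called by edgeR, beside 0% of all genes tested. The 10 log2 fold changes ran from −0.19 to 0.15, with an unadjusted p under 0.05 for 0 members and 374 genes. Het minus WT under Ang II gave 0 members of 10 called by edgeR, beside 0% of all genes tested. Log2 fold changes of members ran from −0.36 to 0.12, with an unadjusted p under 0.05 for 0 members and 974 genes. Under PBS, KO minus WT gave 0 members of 10 called by edgeR, beside 0.0152% of all genes tested. Member log2 fold changes ranged from −0.60 to −0.05, with an unadjusted p under 0.05 for 1 member and 865 genes. PBS KO minus het gave 0 members of 10 called by edgeR, beside 0% of all genes tested. Across the members, log2 fold changes were from −0.17 to 0.12, with an unadjusted p under 0.05 for 0 members and 151 genes. PBS het minus WT gave 0 members of 10 called by edgeR, beside 0% of all genes tested. The 10 log2 fold changes ran from −0.62 to 0.00, with an unadjusted p under 0.05 for 2 members and 631 genes. Across the 10 genotype comparisons of both cell types DESeq2 also called 0 members. Under PBS all 10 members had negative log2 fold changes both in KO and in het against WT, comparisons that share the 2 WT libraries. The member medians were −0.31 and −0.19, beside 0 and 0.01 over all genes tested. The members correlate with each other, so their signs are not 10 separate results. *Aldoa* stood out there, at 323 and 392 CPM in WT, 238, 219 and 245 CPM in het and 233, 258 and 222 CPM in KO. Both WT values lay above all others, with log2 fold changes of −0.60 (SE 0.175, adjusted p = 0.54) for KO and −0.62 (SE 0.175, adjusted p = 0.965) for het, neither of which passed the adjustment. The 95% intervals of single members in the 15 comparisons of agent or genotype extended up to 0.56 log2 to either side.

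Other genes of glycolysis show which isoenzyme transcripts each cell type held at a step. Of 16 further isoenzyme and step genes, 12 were tested in the mean contrast of LT-HSC minus HPC-1, and 4 were higher and 3 lower. Among all genes tested in this contrast, 36.3% were called. Higher in LT-HSC were *Ldhb* (1.52, adjusted p = 3.79e-07), *Aldoc* (2.13, adjusted p = 8.48e-07), *Pfkm* (0.32, adjusted p = 0.0381) and *Eno2*, and lower were *Hk3* (−2.41, adjusted p = 2.82e-07), *Pgam1* (−1.63, adjusted p = 5.86e-10) and *Tpi1* (−0.45, adjusted p = 0.000838). *Eno2* was at a median of 8.231 CPM in LT-HSC and 0.4542 CPM in HPC-1, where 8 of 19 libraries had no count, so it falls under the 1 CPM rule. *Tpi1* and *Pgam1*, which encode the triosephosphate isomerase and the phosphoglycerate mutase between the member steps, were thus lower in LT-HSC as were the members on either side of them.

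Shares of a step's transcripts, computed per kilobase, set the members beside their isoenzymes. Of the summed *Hk1*, *Hk2* and *Hk3* transcripts, *Hk1* made up 75 ± 9.34% (SD, n = 17) in LT-HSC and 50.7 ± 4.5% (n = 19) in HPC-1, and *Hk3* made up 9.14 ± 9.2% and 35.2 ± 4.16%. *Hk2* had similar shares, 15.8 ± 2.79% and 14.1 ± 1.72%. The *Hk3* share in LT-HSC had a median of 6.37% and a maximum of 39.2%. Without both KO replicates 2 (n = 15) its mean was 6.23 ± 3.11% with a maximum of 13.2%, that of *Hk1* was 77.8 ± 4.68%, and those of *Pfkl* and *Ldha* in their steps were 39.1 ± 4.65% and 83.9 ± 3.96%. *Ldha* made up 84.3 ± 4.06% of lactate dehydrogenase transcripts per kilobase in LT-HSC and 94.6 ± 2.88% in HPC-1, the rest being almost all *Ldhb*, the heart-type subunit. *Pfkl* made up 40.2 ± 5.2% of the phosphofructokinases in LT-HSC and 47 ± 4.71% in HPC-1, with *Pfkp* at 33.3 ± 4.62% and 30.9 ± 8.14%. At the remaining steps almost all transcripts were those of the member, with *Aldoa* at 96.5 ± 1.42% and 99.3 ± 0.541%, *Eno1* at 95.2 ± 2.06% and 98.5 ± 0.624% and *Pkm* at 99.5 ± 0.448% and 99.3 ± 0.839%.

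Genes around the pathway were called in both directions in the mean contrast. There 36.3% of all genes tested were called, 17.9% higher and 18.5% lower, and the counts below are read against these shares. Of 8 glucose and lactate transporter genes, 2 were higher in LT-HSC, the glucose transporters *Slc2a3* (1.84, adjusted p = 6.42e-12) and *Slc2a1* (0.70, adjusted p = 0.000147). Lower were 3, *Slc2a6* (medians of 0.5177 CPM in LT-HSC and 6.018 CPM in HPC-1), the lactate transporter *Slc16a1* (−0.35, adjusted p = 0.0433) and its chaperone *Bsg* (−0.29, adjusted p = 0.00515). *Slc2a3* was at a lowest, median and highest of 48.8, 156 and 198 CPM in LT-HSC and 19.9, 37.9 and 59.7 CPM in HPC-1, so the uptake gene ran opposite to most of the enzymes. A list of 6 genes held regulators of phosphofructokinase flux and *Bpgm*, which is not one of them. Of these, *Pfkfb2* (0.95, adjusted p = 8.39e-07) and *Bpgm* (0.73, adjusted p = 0.000958) were higher and *Tigar* (−1.13, adjusted p = 0.01) was lower. Of 11 genes of pyruvate entry into mitochondria, 3 were higher, the pyruvate dehydrogenase kinases *Pdk2* (0.88, adjusted p = 0.00118), *Pdk3* (0.28, adjusted p = 0.0124) and *Pdk4*, which inhibit the pyruvate dehydrogenase complex. Lower were 5, the complex genes *Pdha1* (−0.57, adjusted p = 1.1e-07), *Dlat* (−0.30, adjusted p = 0.0168) and *Dld* (−0.52, adjusted p = 7.13e-05), the pyruvate carrier *Mpc1* (−0.61, adjusted p = 0.0168) and the kinase *Pdk1* (−0.28, adjusted p = 0.0299). *Pdk4* was low, at a median of 3.98 CPM in LT-HSC and no count in 13 of 19 HPC-1 libraries.

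Of the 8 genes of the pentose phosphate branch, which draws on the product of hexokinase, 6 were lower in LT-HSC and 0 higher: *Pgls* (−0.89, adjusted p = 4.04e-07), *Tkt* (−0.66, adjusted p = 2.1e-06), *Taldo1* (−0.81, adjusted p = 4.62e-06), *Pgd* (−0.58, adjusted p = 0.000149), *G6pdx* (−0.66, adjusted p = 0.000522) and *Rpe*. Of 7 gluconeogenesis genes, 6 were tested and *G6pc3* (−0.63, adjusted p = 8.6e-05) was called. A list of 16 genes held the hypoxia-inducible factor axis, which controls glycolytic genes in low oxygen, together with the transcription factors *Meis1* and *Myc*. Of these, 15 were tested, 5 were higher (*Meis1* at 1.25, *Hif3a* at 2.90, *Vegfa* at 0.91 and *Arnt* at 0.34 log2, and *Epas1* with medians of 13.18 CPM in LT-HSC and 0.5979 CPM in HPC-1) and 3 lower (*Egln3* at −1.67, *Myc* at −0.95 and *Egln1* at −0.73 log2). *Hif1a* itself was not called, at −0.14, adjusted p = 0.203. The counts of these 3 lists stand beside 36.3% of all genes called in this contrast, 17.9% higher and 18.5% lower. Within a cell type, the pathway lists gave calls in 1 comparison of agent or genotype, KO minus WT in Ang II LT-HSC, where *Slc2a8* and *Hif1an* were higher. That comparison called 1.69% of all genes. Its WT libraries had intestinal sums of 466.9 and 534.8 CPM, and the intestinal genes named above were called in it as well. *Slc2a8* was low, at a median of 5.87 CPM in LT-HSC, where 2 libraries had no count.

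Proliferation genes were lower in LT-HSC as most members were. All 8 of them were lower in LT-HSC, from −1.16 log2 for *Top2a* to −0.59 log2 for *Pcna*, and the list summed to a median of 2145 CPM in LT-HSC and 4433 CPM in HPC-1, with *Mki67* the most abundant gene in both. The highest LT-HSC sums were 4707 CPM in Ang II KO replicate 2 and 3882 CPM in PBS KO replicate 2, the pair with HPC-1 markers. In these libraries 7 and 6 members were among the 3 highest of 17. Ang II WT replicate 2, with a sum of 2756 CPM, also had 6 members among the 3 highest. PBS het replicates 1 and 2 and Ang II het replicate 1, with sums of 2914, 2707 and 2859 CPM, had 0. In those libraries 2, 6 and 2 members were among the 3 lowest. Other lists in this contrast, with all libraries, gave all 4 megakaryocyte genes higher, 5 of 7 erythroid genes higher, *S100a9* higher (adjusted p = 0.0497, at an LT-HSC median of 3.98 and a highest value of 2179 CPM) and *Elane* lower among 6 neutrophil genes, 2 of 5 macrophage genes lower, 4 of 12 tested intestinal genes higher and 0 of the 1 B lymphoid gene tested (*Cd79b*, adjusted p = 0.612). Among all genes tested, 36.3% were called in this contrast. The part of any of these lists in the members' differences was not tested.

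Across libraries of 1 cell type most pairs of members were positively correlated. Over the 45 pairs of members, Pearson's r of log2 CPM had a median of 0.404 in LT-HSC (n = 17, range −0.156 to 0.796, 40 pairs positive) and 0.434 in HPC-1 (n = 19, range −0.0987 to 0.828, 43 pairs positive). Over all pairs of genes with a mean of at least 10 CPM the median was 0.017 in LT-HSC, with 52% of pairs positive, and 0.00676 in HPC-1, with 50.8% positive. Without both KO replicates 2 the LT-HSC median of the member pairs was 0.321 (n = 15, 37 pairs positive). *Gpi1* with *Eno1* had 0.796 in LT-HSC and 0.828 in HPC-1, the highest of the pairs with all libraries, and *Gapdh* with *Pgk1* had 0.795 and 0.777. In LT-HSC without that pair of libraries these were 0.616 and 0.507, and the highest was *Pfkl* with *Aldoa* (0.748). *Hk1* with *Gapdh* had −0.141 in LT-HSC, which was 0.305 without the pair, and 0.399 in HPC-1. Other member pairs turned negative when those libraries were left out. *Gapdh* with *Eno1* went from 0.459 to −0.252 in LT-HSC, and *Pgk1* with *Eno1* from 0.386 to −0.204. The lowest r was then that of *Eno1* with *Ldha*, at −0.515 in place of −0.128. Among 9667 other genes with a mean of at least 10 CPM, the 5 that followed the mean of the members most closely within both cell types were *Tkt* (r = 0.876 in LT-HSC and 0.862 in HPC-1), *Slc7a5* (0.776 and 0.775), *Gart* (0.765 and 0.861), *Ndufb10* (0.788 and 0.763) and *Vcp* (0.789 and 0.761). Without both KO replicates 2 the LT-HSC values of these 5 were 0.812, 0.814, 0.796, 0.634 and 0.665. These points share library, depth and cell composition, and the values are a description.

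Near-identical copies limit how surely counts belong to a member. A search of annotated transcripts at 95% identity or more over at least 150 bases found 71 other genes for *Gapdh*, whose counts summed to 37.4% of those of *Gapdh* on average, so its level is uncertain. It found 2 for *Pgk1* (17.3%, *Pgk1-rs7*), 2 for *Eno1* (6.92%), 1 for *Gpi1* (1.56%), 1 for *Ldha* (0.192%) and none for *Hk1*, *Hk2*, *Pfkl*, *Aldoa* and *Pkm*, leaving out genes that overlap the member's own locus (*Hk1os* for *Hk1*, at 0.634% of its counts). With the counts of all such copies added to each member, a choice made after seeing the data, the mean contrast still called 7 members. The members lie on 5 autosomes and the X chromosome in mm10. Those on chromosome 7 are *Gpi1* (ENSMUSG00000036427, chr7:34201330-34230336), *Aldoa* (ENSMUSG00000030695, chr7:126795234-126800751) and *Ldha* (ENSMUSG00000063229, chr7:46841475-46855627). Those on chromosome 6 are *Gapdh* (ENSMUSG00000057666, chr6:125161715-125166467) and *Hk2* (ENSMUSG00000000628, chr6:82725025-82774454), and those on chromosome 10 are *Hk1* (ENSMUSG00000037012, chr10:62268855-62379908) and *Pfkl* (ENSMUSG00000020277, chr10:77986947-78010083). The others are *Eno1* (ENSMUSG00000063524, chr4:150236721-150248879) on chromosome 4, *Pkm* (ENSMUSG00000032294, chr9:59656368-59679375) on chromosome 9 and *Pgk1* (ENSMUSG00000062070, chrX:106187100-106203699) on the X chromosome.

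The promoters of all 10 members, called or not, were read for the hypoxia response core, spelled ACGTG or GCGTG and searched on both strands of the 300 bases around each start in the RefSeq promoter table (GRCm38.p6). The table held 17 promoters of them, and 13 of these 17 held ACGTG or GCGTG, against 43.8% of all 32851 promoters. Those 13 came from 9 of 10 members, a count by gene that has no such rate beside it. Windows of *Aldoa* and of *Eno1* overlap, and the same matches count in 2 windows of each. ACGTG was in 8 of the 17 member promoters and 19.6% of all promoters, and GCGTG in 8 of the 17 and 32.4% of all. CACGTG, the E-box that contains ACGTG, was in 7.15% of all promoters and in 1 member promoter, of *Ldha*. A match is a description of letters and not a site. The promoters of *Pgk1* (chrX:106186850-106187149, plus strand), *Gapdh* (chr6:125165724-125166023, minus strand) and *Gpi1* (chr7:34230287-34230586, minus strand) are shown because these genes had the largest decreases in LT-HSC and differ in the letters they hold, and that of *Ldha* (chr7:46845554-46845853, plus strand), which was not called, because it is the member promoter with CACGTG. Capitals mark the motif on either strand (CACGT or CACGC on the printed strand when it lies on the other).
*Pgk1*: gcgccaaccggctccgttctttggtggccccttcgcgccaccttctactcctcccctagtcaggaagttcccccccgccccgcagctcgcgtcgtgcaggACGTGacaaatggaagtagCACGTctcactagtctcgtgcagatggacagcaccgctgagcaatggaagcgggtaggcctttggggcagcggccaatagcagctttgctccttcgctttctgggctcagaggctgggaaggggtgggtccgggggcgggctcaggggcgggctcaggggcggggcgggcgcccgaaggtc
*Gapdh*: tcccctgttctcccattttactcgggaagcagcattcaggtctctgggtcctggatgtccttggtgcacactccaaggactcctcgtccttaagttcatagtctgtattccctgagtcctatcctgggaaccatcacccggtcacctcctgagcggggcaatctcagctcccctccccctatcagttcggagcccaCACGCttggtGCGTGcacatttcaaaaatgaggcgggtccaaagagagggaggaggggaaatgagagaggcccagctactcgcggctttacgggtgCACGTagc
*Gpi1*: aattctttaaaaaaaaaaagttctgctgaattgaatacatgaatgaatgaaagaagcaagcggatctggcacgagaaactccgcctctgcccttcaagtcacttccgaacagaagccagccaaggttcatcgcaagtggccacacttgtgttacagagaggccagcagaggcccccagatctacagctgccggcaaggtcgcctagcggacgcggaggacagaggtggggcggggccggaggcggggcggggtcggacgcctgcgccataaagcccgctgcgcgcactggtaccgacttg
*Ldha*: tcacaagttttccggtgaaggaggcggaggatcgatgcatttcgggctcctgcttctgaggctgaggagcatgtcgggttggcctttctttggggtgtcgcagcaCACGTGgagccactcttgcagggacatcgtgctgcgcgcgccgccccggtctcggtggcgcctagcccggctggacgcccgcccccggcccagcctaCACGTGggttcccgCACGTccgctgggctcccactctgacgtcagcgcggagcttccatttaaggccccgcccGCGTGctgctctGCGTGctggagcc
These windows held 2 matches for *Pgk1*, 3 for *Gapdh*, 0 for *Gpi1* and 7 for *Ldha*, where each of the 2 CACGTG counts on both strands.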

How the data were processed

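The authors sorted the cells, made stranded total RNA libraries with a low-input kit and estimated gene counts with RSEM against mm10; what they deposited is a table of expected counts, rounded and without normalization. The paper names STAR as the aligner and the labels Bowtie2. The labels give RSEM 1.2.31 and the paper an earlier version, so the aligner and the RSEM version are uncertain. Gene symbols were found for 37570 of 38887 identifiers (99.63% of counts). All 36 libraries were used, and no 2 replicates were duplicates (chi-square per degree of freedom 4.03 or more).

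Counts were tested in R 4.3.3 with edgeR 4.0.16 (filterByExpr, TMM, robust quasi-likelihood test) and Benjamini-Hochberg adjustment over all genes tested, at 0.05, with 12 groups in 1 model for cell type contrasts and interactions (18013 genes) and 6 groups in a model of each cell type otherwise (16365 genes in LT-HSC, 13199 in HPC-1). Log2 CPM used a prior count of 2. The functions were tested on simulated data. Levels per kilobase divide CPM by the median length of a gene's coding transcripts in GENCODE vM21. Copies were found with BLAST+ 2.17.0. All members are named; of the pathway lists every called gene is named, and of the marker lists genes that define the gates, the most abundant gene or single called genes. The members and lists were chosen with earlier results of these data known. Alternatives were DESeq2 1.42.0, upper-quartile scaling, other filters, replicate number as a block, a Y-linked covariate in place of the sex that the labels lack, subsets of libraries, each replicate left out, and summed copies; added after seeing the data were copies found by sequence, library totals alone the mean contrast without the KO or the Ang II WT libraries, and correlations and shares without both KO replicates 2. Promoter sequences are from RefSeq. Protein sequences were not used here.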

Additional observations from a re-analysis of the deposited data

Results flagged for a closer look

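In 40 tests of a member within a group of 4 libraries, 2 single libraries lay far from the other 3 for their group's spread, which is the number that chance gives at a rate of 1 in 20. *Hk2* in Ang II het LT-HSC replicate 1 was at 47.07 CPM, below the others at 78.12, 78.56 and 81.29 CPM. *Pfkl* in Ang II het LT-HSC replicate 4 was at 122.1 CPM, above the others at 92.74, 93.64 and 97.55 CPM. Neither gene was called in any comparison, and causes were not tested.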

How the results depend on the processing

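In the mean LT-HSC minus HPC-1 contrast, 7 members were called in each of the 33 fits that left out 1 replicate and under DESeq2, upper-quartile scaling, a mean count of at least 10, the replicate block, the Y-linked covariate, all 6 combinations, only the groups compared, summed copies, and without the KO libraries, the Ang II WT libraries or both KO replicates 2. It was 6 with only the libraries under 4000000 counts or library totals alone (*Aldoa* lost) and 5 with no filter on low counts (*Aldoa* lost, and *Hk1* at 0.22). Of 490 log2 fold changes of members under alternatives, 486 kept sign and side of the threshold, 4 kept the sign alone and 0 reversed. Library totals alone moved the median log2 fold change of all genes from 0.03 to 0.13, and the genes called from 3219 higher and 3326 lower to 3773 higher and 2470 lower, with the members' median at −0.19; DESeq2 gave medians of 0.22 and −0.22. The counts of called members within single combinations moved more, and the cause was not tested. For PBS het (2) they were 1 with upper-quartile scaling or a mean count of at least 10, 0 with only the libraries under 4000000 counts or library totals alone, and 0 to 1 with a replicate left out. For Ang II WT (3) they were 1 with the replicate block or only the groups compared, and 0 to 3 with a replicate left out. For Ang II het (6) they were 3 with only the libraries under 4000000 counts and 3 to 6 with a replicate left out. For Ang II KO (3) they were 5 without both KO replicates 2, 0 with only the libraries under 4000000 counts, only the groups compared or library totals alone, and 0 to 4 with a replicate left out. No alternative called a member in the comparisons of agent or genotype within a cell type or in the interactions. Over 16 pairs of an LT-HSC and an HPC-1 library with the same number, r of residual log2 CPM ran from −0.33 to 0.481, was over 0.1 in 9 and was best with the own number in 10. Between groups of 1 cell type, such r ran from −0.00615 to 0.466 for number 1, −0.273 to 0.379 for number 2 and 0.137 to 0.544 for number 3 in LT-HSC, with 0.261 for number 4, and from −0.0869 to 0.335, −0.0807 to 0.191 and −0.21 to 0.635 in HPC-1, with 0.59 for number 4. The labels do not say that libraries share an animal. A group left with 1 library by an omission was assumed to vary like the others.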
